A study of Mus musculus with 6 samples.

Results

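The 9 genes described here act in mouse liver in glucose uptake, glucokinase control, glycogen synthesis and breakdown and, for *Pfkl*, glycolysis. They are *Gckr*, *Slc2a2*, *Gys2*, *Pygl*, *Gbe1*, *Ppp1r3b*, *Ppp1r3c*, *Ugp2* and *Pfkl*, chosen by symbol, and all 9 are among the 24421 genes of the authors' deposited expression table. RNA sequencing (RNA-seq) of hepatic mRNA was performed on 3 wild-type (WT) mice and 3 mice heterozygous for the *Pai-1* null allele (*Pai-1*+/-), *Pai-1* being the gene of plasminogen activator inhibitor 1. Both groups were C57BL/6 mice aged 21 weeks in the sample labels, kept on a standard chow (SC) diet with free access to food, and received no drug. The substrain in the methods is C57BL/6 J. The study text gives a younger age than the labels and describes the WT mice as littermates. The labels state male sex for the WT mice, and the study describes all mice as male. The heterozygous animals came from mating *Pai-1*-/- with WT mice, so the change is in the germline and present in every cell, not in the liver alone.

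The study asked which hepatic transcripts differ between *Pai-1*+/- and WT mice. That comparison is not made here for the 9 genes. The per-animal counts carry 6 animal numbers that match no sample label, so no count was given to a genotype, and the authors' own fold changes and p-values were not used. The values below are the authors' mean normalized count, the average over the libraries of both genotypes after each was scaled for depth. This mean describes abundance in the livers of both genotypes together, and comes with no error or value per mouse. Since the per-animal counts were not used, no difference between genes was tested against the spread between mice. The authors mark genes with a mean of 10 or less as low.

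Hepatocytes take up glucose through a transporter that works in both directions and trap it as glucose 6-phosphate by means of glucokinase. Part of the glucose 6-phosphate enters glycolysis, where phosphofructokinase catalyses the committed step. Another part is turned into UDP-glucose, the sugar donor from which glycogen synthase and the branching enzyme build glycogen after a meal. Glycogen phosphorylase releases glucose units from that store between meals. Protein phosphatase 1, held on the glycogen particle by targeting subunits, dephosphorylates both enzymes, which activates the synthase and inactivates the phosphorylase.

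The liver label was checked first. All 6 hepatocyte markers were abundant, from 56732 for *Tat* to 2155546 for *Alb* as the authors' mean normalized count, and together they made up 10.1% of all normalized counts. The 3 skeletal muscle markers lay between 0.690 and 3.24, under the authors' limit of 10. Kupffer cell, endothelial cell, stellate cell and cholangiocyte markers, 19 genes in all, were each above 10 and summed to 0.0191%, 0.0129%, 0.0203% and 0.00146% of all normalized counts. Of the red cell list only *Alas2* was above 0, at 2136, and of the pancreas list only *Cela1*, at 242.2, while *Hba-a1*, *Hbb-bs*, *Prss1* and *Ins2* were listed at 0. In whole tissue, fewer cells of a type and less RNA per cell cannot be told apart. Whether the genes listed at 0 lacked RNA or had reads that were not counted was not tested, so their values do not show absent cells.

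The 9 genes were among the abundant hepatic transcripts. The authors' mean normalized count was 10827 for *Ugp2* and 10599.5 for *Pygl*. It was 8716 for *Slc2a2* and 7864 for *Gys2*. These 4 genes lay between percentiles 96.2 and 97.2 of the 12971 genes above the authors' limit of 10, whose median was 440.4. A middle group of 3 genes followed within a narrow range, *Ppp1r3b* at 3773, *Gckr* at 3737 and *Gbe1* at 3595, between percentiles 91.1 and 91.5. *Pfkl* at 1041 and *Ppp1r3c* at 889.8 were lowest, at percentiles 70.9 and 67.3. Together the 9 genes held 0.170% of all normalized counts.

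**Figure D1:**
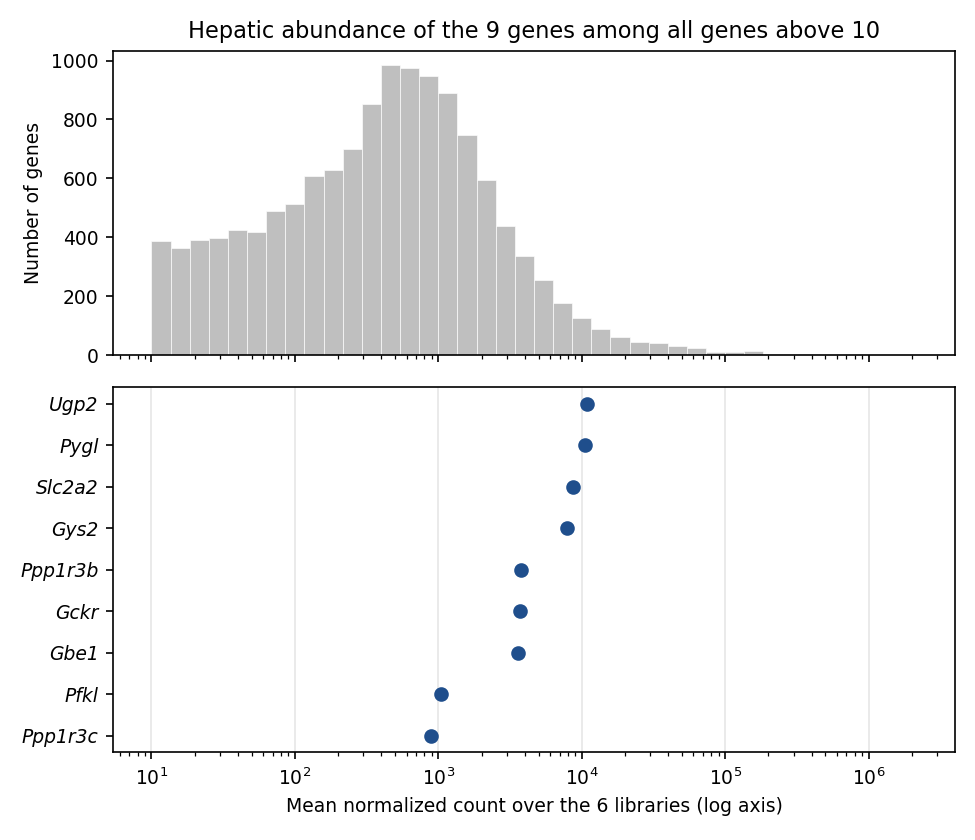
Mean normalized count over the 6 libraries (log axis), as the authors give it. The upper panel counts the 12971 genes above 10 in each interval, and the lower panel places the 9 genes on the same axis as single points without error, from *Ppp1r3c* at 889.8 to *Ugp2* at 10827, all to the right of the median of 440.4.

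A longer transcript yields more reads at the same number of molecules, so the mean normalized counts above give the order of reads and not of molecules, and levels are compared between genes per length where a length is available. The level used here is the mean normalized count per kilobase of the longest annotated transcript, scaled to 1000000 over all genes with a length. On this scale *Ugp2* was highest at 306, followed by *Pygl* at 255, *Gys2* at 224 and *Slc2a2* at 119. *Gbe1* stood at 72.9, *Gckr* at 70.5 and *Ppp1r3b* at 65.1. *Ppp1r3c* at 24.7 and *Pfkl* at 21.1 were again lowest, and the ends of the order differed 14.5-fold, or 22.6-fold with the union of exons. The median level of all genes above the limit of 10 was 9.76, below each of the 9. The positions of *Ugp2* as highest, *Ppp1r3b* as the seventh, *Ppp1r3c* as the eighth and *Pfkl* as lowest held for 3 definitions of length. Those of the other 5 genes did not, and whether neighbours in the order differ between mice was not tested.

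**Figure D2:**
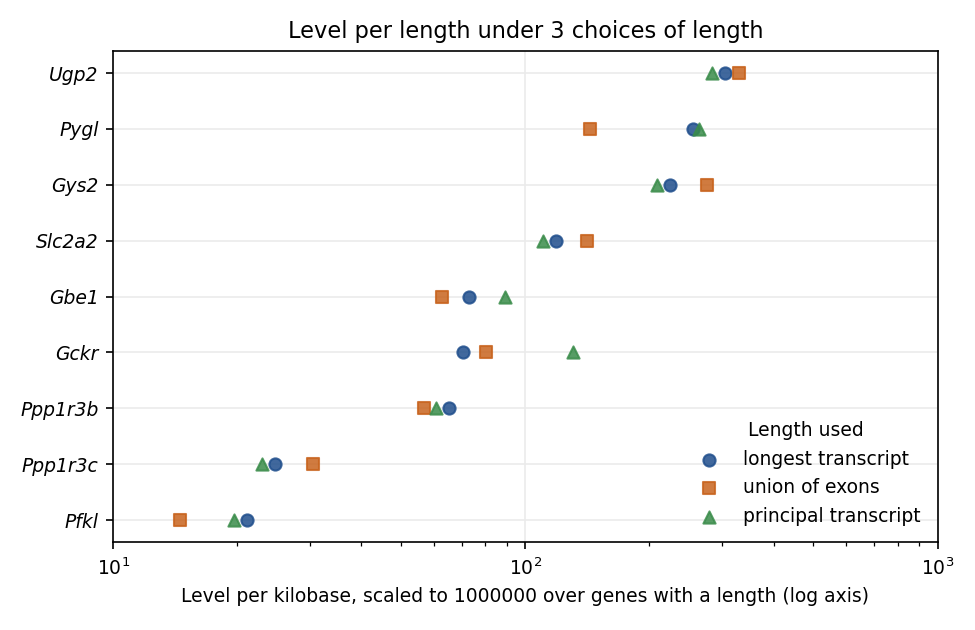
Level of each of the 9 genes per kilobase, scaled to 1000000 over genes with a length (log axis), computed from the authors' mean with the longest transcript (circles), the union of all annotated exons (squares) or the principal transcript (triangles). *Pygl* ranges from 143 to 264 and *Gckr* from 70.5 to 131 with the length chosen, while *Ugp2* stays highest and *Pfkl* lowest. Points are single values without error.

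Glucose uptake was represented by *Slc2a2* (ENSMUSG00000027690.13), the gene of GLUT2, the low-affinity facilitative transporter of the hepatocyte membrane. It lies at chr3:28697903-28731359 on the plus strand of GRCm38, and its principal transcript of 5569 bases in 11 exons has 1569 coding bases. Much of the transcript is thus untranslated, and the count of 8716 ranks it higher than its level per length. Among 7 listed hexose transporters it held 61.3% of the summed level per length. The next, *Slc2a9*, which mainly carries urate, stood at 40.2, or 2.95-fold lower. *Slc2a8* was at 13.4, *Slc2a1*, the widely expressed GLUT1, at 10.6 and the fructose transporter *Slc2a5* at 10.4. *Slc2a3*, the neuronal glucose transporter, was at 0.205 and *Slc2a10* at 0.0646, the latter under the authors' limit. Of the genes of glucose release, *G6pc*, the hepatic catalytic subunit of glucose 6-phosphatase, was 5.61-fold higher than *Slc2a2*, and *Slc37a4*, which carries glucose 6-phosphate into the endoplasmic reticulum, 1.71-fold higher per length. *G6pc3*, the widely expressed catalytic subunit, was lower than *Slc2a2*, at 11.6.

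*Gckr* (ENSMUSG00000059434.9) encodes the regulatory protein that binds glucokinase and holds it in the nucleus when fructose 6-phosphate is high. It spans chr5:31297443-31327314 on the plus strand and its principal transcript has 19 exons, 2014 bases and 1761 coding bases. A longer annotated transcript of 4014 bases sets its level at 70.5, and the principal transcript sets it at 131. *Slc2a2* was accordingly 1.68-fold above *Gckr* with the longest transcript and 0.843 times *Gckr* with the principal one, so the order of these genes was not settled by the mean. The hexokinases that most other tissues use were scarce. *Hk1* was at 1.76, *Hk2*, the insulin-responsive muscle form, at 0.555 and *Hk3*, a form of blood cells, at 2.34.

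*Ugp2* (ENSMUSG00000001891.16) makes UDP-glucose from glucose 1-phosphate and so supplies both glycogen synthesis and glucuronidation. It lies at chr11:21321138-21371201 on the minus strand, with 10 exons, 2683 bases and 1524 coding bases in its principal transcript. Per length it stood 1.36-fold above *Gys2* and 3.53-fold above *Ugdh*, which turns UDP-glucose into UDP-glucuronate. With the principal transcript the excess over *Ugdh* was 1.46-fold. Phosphoglucomutase, the preceding step, was listed under *Pgm1* at 144.2 and *Pgm2* at 8320 as the authors' mean normalized count. Each of these symbols is a synonym of the other gene in RefSeq, so neither row was given a length or an enzyme.

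Glycogen synthase was represented by *Gys2* (ENSMUSG00000030244.7), the liver form, at chr6:142422613-142473109 on the minus strand. Its principal transcript has 17 exons and 2657 bases, of which 2112 code for protein. *Gys2* held 99.0% of the level per length of both synthase genes. The muscle form *Gys1* was at 2.33, a ratio of 96.3 with the longest transcript and 125 with the union of exons. *Gys1* shares 310 exonic bases with *Ruvbl2* on the other strand and 5.99% of its 75-base windows with 1 other gene, and the strand setting of the counting is not given in the sources used here. *Gbe1* (ENSMUSG00000022707.16), the branching enzyme, extends over 255768 bases at chr16:70313949-70569716 on the plus strand, the longest of the 9 genes. Its principal transcript of 17 exons has 2846 bases and 2106 coding bases. *Gys2* exceeded it 3.07-fold per length, between 2.34-fold and 4.41-fold over the definitions of length. *Gyg*, the protein primer of the glycogen particle, stood at 9.04.

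Glycogen breakdown was led by *Pygl* (ENSMUSG00000021069.17), liver glycogen phosphorylase, at chr12:70190811-70231488 on the minus strand. Its principal transcript has 20 exons, 2825 bases and 2550 coding bases. *Pygl* held 98.7% of the level of the 3 phosphorylase genes, 100.1-fold above the brain form *Pygb* at 2.55 and 328-fold above the muscle form *Pygm* at 0.777. With the union of exons, which for *Pygl* is 6895 bases long, these ratios were 56.3 and 168. Phosphorylase and synthase were close to each other, with *Pygl* 1.14-fold above *Gys2* for the longest transcript and 0.519 times *Gys2* for the union of exons. *Gaa*, the lysosomal enzyme that degrades glycogen by another route, was at 94.7. Among subunits of phosphorylase kinase, which activates the phosphorylase, *Phkg2*, the catalytic subunit of liver, was at 32.0 and *Phkg1*, that of muscle, at 0.100 and under the authors' limit. The regulatory subunit *Phka2* of liver was at 17.7 and *Phka1* of muscle at 2.90.

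Among targeting subunits of protein phosphatase 1, *Ppp1r3b* (ENSMUSG00000046794.9), known as GL, was the most abundant. It lies at chr8:35375739-35388139 on the plus strand, and 3534 of the 4386 bases of its principal transcript are untranslated. *Ppp1r3c* (ENSMUSG00000067279.3), known as PTG, spans 4923 bases at chr19:36731731-36736653 on the minus strand, with 2 exons and 951 coding bases in the single annotated transcript. *Ppp1r3b* was 2.63-fold above *Ppp1r3c* per length. The ratio was 1.86 with the union of exons. *Ppp1r3g* followed *Ppp1r3c* closely at 19.5, a ratio of 1.27, and *Ppp1r3e* was at 5.10. The other 3 listed subunits, *Ppp1r3d*, *Ppp1r3f* and the muscle subunit *Ppp1r3a*, lay between 0.0485 and 0.195. *Ppp1r3b* held 56.7% and *Ppp1r3c* 21.5% of the summed level of the 7 subunits. *Stbd1*, which binds glycogen and directs it to lysosomes, was at 131, 2.01-fold above *Ppp1r3b*. The laforin gene *Epm2a* at 1.29 and the malin gene *Nhlrc1* at 1.36, whose products guard against misshapen glycogen, were low.

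*Pfkl* (ENSMUSG00000020277.10), liver phosphofructokinase, lies at chr10:77986947-78010083 on the minus strand, with 22 exons, 3730 bases and 2340 coding bases. Unlike the liver forms of synthase and phosphorylase, its mRNA level in whole liver was close to that of the muscle form. Which cells hold the mRNA of either form was not tested. *Pfkl* stood at 21.1 and *Pfkm* at 17.5, with shares of 53.7% and 44.6%, whereas the platelet form *Pfkp* was at 0.663. With the union of exons *Pfkl* was the lower of the pair, at 43.2% against 55.3% for *Pfkm*, so which form is more abundant depends on the length used. The opposing enzyme *Fbp1*, fructose 1,6-bisphosphatase, was 81.6-fold above *Pfkl* with the longest transcript and 127-fold above it with the union of exons. Of the bifunctional enzymes that set fructose 2,6-bisphosphate, the main activator of phosphofructokinase, *Pfkfb1* of liver was at 20.7, *Pfkfb2* at 16.9, *Pfkfb3* at 8.11 and *Pfkfb4* at 0.679. *Pfkm* shares 341 of its 3340 exonic bases with *Gm26513* on the same strand and 18 with *Senp1* on the other, and *Pfkp* shares 748 with *Pitrm1* on the other strand, so the values of both are uncertain.

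**Figure D3:**
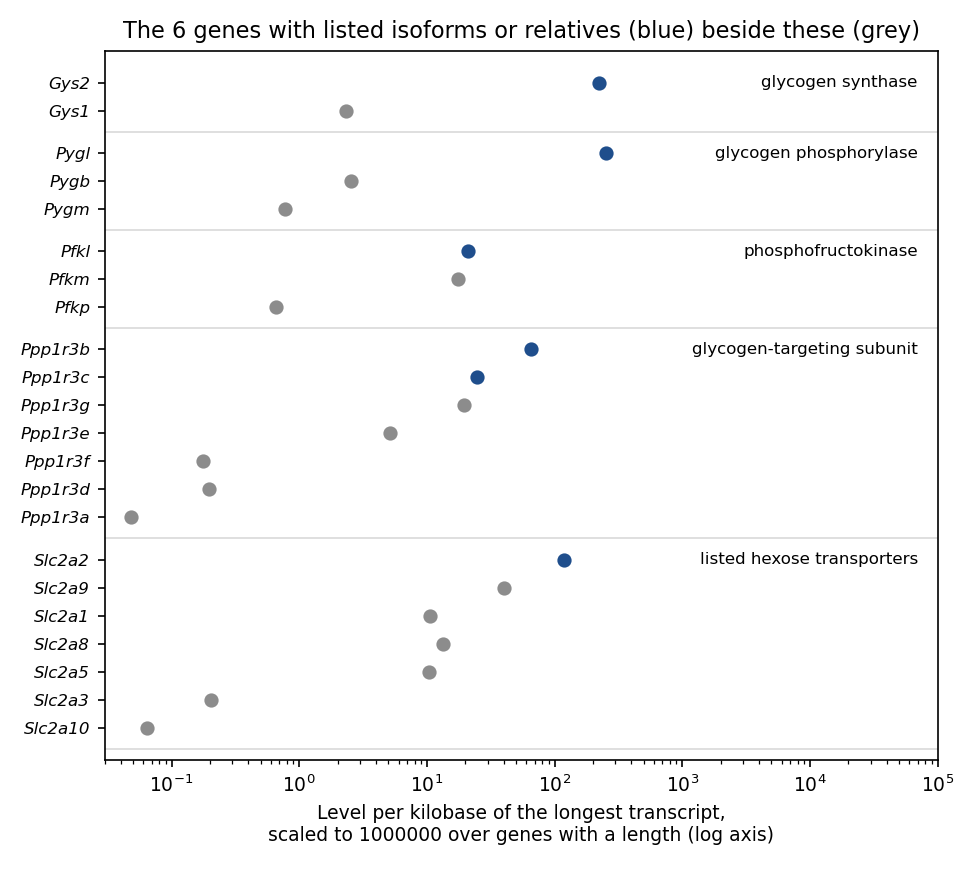
Level per kilobase of the longest transcript, scaled to 1000000 over genes with a length (log axis), for the 6 of the 9 genes with listed isoforms or relatives (blue) and for these (grey), computed from the authors' mean without error. *Gys2* and *Pygl* lie far to the right of their isoforms, whereas *Pfkl* at 21.1 lies beside *Pfkm* at 17.5.

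Over the list of 57 other genes of glucose entry, phosphorylation, glycogen and glycolysis, all were in the table and 52 were above the authors' limit of 10. *Eno1*, a glycolytic enzyme, was listed at 0, and 65.4% of its 75-base windows occur in transcripts of 6 other genes. The share was 80.3% for *Gapdh*, which was listed at 10723. For the 9 genes this share was 0 in 7 of them, 0.400% in *Pygl* and 0.153% in *Ugp2*, and their exons overlapped another gene only in *Ugp2*, by 78 bases. How reads with several matches were counted was not tested.

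The sequences before the start sites were read to see which promoter cores these genes share. RefSeq windows from 250 bases before to 50 after a start were at hand for 7 of the 9 genes, in 8 windows on GRCm38.p6. All searches covered both strands, and no motif contains another. CACGTG is the E-box core bound by clock and carbohydrate-response factors. CCAAT is the box bound by the factor NF-Y. FOXO factors, which insulin restrains, were represented by the core CAAACA, the only form of their site that was searched. The TATA box was searched as TATAAA. Of these, CCAAT was found in 4 of the 8 windows and in 37.4% of all 32851 windows. CAAACA was found in 2 and in 18.2% of all, and CACGTG in 1, that of *Ppp1r3c*, and in 7.15% of all. TATAAA was found in 0 of the 8 and in 13.6% of all. *Gckr* holds CCAAT, as its complement, 9 bases before the RefSeq start, and its sequence is not shown. That start lies downstream of the first base of the *Gckr* span given above, so the match falls inside the span. Distances in all windows are counted from the RefSeq start. For *Ugp2* and *Ppp1r3c* too, it differs from the start of the gene span given above. The 4 stretches of 150 bases below show upstream matches of 4 other genes, in the direction of transcription, with the matched letters or their complement in capitals.
Slc2a2: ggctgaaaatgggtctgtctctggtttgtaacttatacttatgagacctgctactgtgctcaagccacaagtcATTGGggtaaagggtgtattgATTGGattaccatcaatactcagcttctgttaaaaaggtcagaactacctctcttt
Gbe1: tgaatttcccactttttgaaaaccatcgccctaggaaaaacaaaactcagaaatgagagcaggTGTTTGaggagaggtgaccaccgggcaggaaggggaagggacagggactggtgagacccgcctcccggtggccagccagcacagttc
Ugp2: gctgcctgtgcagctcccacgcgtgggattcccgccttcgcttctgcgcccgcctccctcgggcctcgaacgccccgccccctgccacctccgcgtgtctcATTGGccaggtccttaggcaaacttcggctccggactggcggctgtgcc
Ppp1r3c: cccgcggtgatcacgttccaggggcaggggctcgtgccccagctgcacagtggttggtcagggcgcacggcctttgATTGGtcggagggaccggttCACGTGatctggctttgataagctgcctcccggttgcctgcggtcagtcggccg
The first lies at chr3:28697753-28697902 on the plus strand and holds CCAAT, read as its complement, 77 and 56 bases before the start. The second, at chr16:70313799-70313948 on the plus strand, holds CAAACA as its complement 87 bases before. The third, at chr11:21371268-21371417 on the minus strand, holds CCAAT as its complement 49 bases before. The same *Ugp2* window also holds CAAACA 236 and 189 bases before the start, upstream of the stretch shown. A further CCAAT match of that window, as its complement, lies after the RefSeq start. The fourth, at chr19:36736655-36736804 on the minus strand, ends 51 bases before the RefSeq start. It holds CCAAT as its complement 124 bases and CACGTG 104 bases before that start. The *Ppp1r3c* window also holds CCAAT after the RefSeq start, outside the stretch shown. A match names letters and not a bound site, and the abundance of these genes was not tested against it.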

How the data were processed

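RNA-seq libraries were made from livers of 3 WT and 3 *Pai-1*+/- mice and sequenced as single-end reads of 75 bases. The authors aligned the reads to mm10 with STAR and compared genotypes with DESeq2 in a BaseSpace application, RNA Express. The submitters' processing notes also name HOMER, and versions, annotation and strand setting are not given in the sources used here. The value used is a signal that the authors deposited for 24421 genes, namely counts divided by size factors and averaged over the libraries, with a sum of 30045982. This mean holds no depth of single libraries, and no interval is given. That table also holds the authors' log2 fold changes, standard errors, Wald statistics, p-values and adjusted p-values, which were not used. A further table, of whole-number counts, was left out. Its 6 columns are headed by numbers of animals, none of which occurs in a sample label, so neither their values nor their totals were taken. The planned edgeR comparison of genotypes was therefore not run.

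Genes were matched by symbol to GENCODE M21 on GRCm38, the assembly of mm10. A single gene was found for 95.5% of the symbols, which hold 97.5% of the normalized counts, without *Pgm1* and *Pgm2*. Levels per length were computed with the longest annotated transcript. Alternatives were the union of exons, genes above a mean of 10, and, added after the data were seen, the principal transcript of the annotation. A window of 75 bases of the principal transcript counted as shared when it occurred identically, on either strand, in a transcript of another gene. The arithmetic of the levels was tested on simulated counts with known lengths, which cannot test the choice of length. The genes named are the 9 genes and genes of the fixed pathway list in the same steps, and some genes of that list are left out. The 9 genes and the lists were chosen with earlier results of these data known. Python 3.11.15, NumPy 2.4.6, pandas 2.3.3 and Matplotlib 3.10.9 were used.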

Additional observations from a re-analysis of the deposited data

How the results depend on the processing

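The values have no spread between mice, so any change in the third digit counted as a change. The median level of the 9 genes per length was 72.9 with the longest transcript, 80.5 with the union of exons, 73.0 over genes above a mean of 10 and 110 with the principal transcript. With the union of exons the share within the family was 99.2% for *Gys2*, 97.7% for *Pygl*, 43.2% for *Pfkl*, 49.8% for *Ppp1r3b* and 65.2% for *Slc2a2*. With the principal transcript it was 98.8% for *Pygl*, 52.7% for *Pfkl* and 59.3% for *Slc2a2*. *Pfkl* was the one of these whose place as the leading form was lost, with the union of exons. The union counts the exons of every annotated transcript, and the longest transcript was picked from all of these, coding or not. No definition of length took account of whether liver makes the transcript. Levels as a share of raw counts were not run, nor were other normalizations, DESeq2, other filters or fits that leave out a mouse, since the per-animal counts, whose columns match no sample label, were not used in any step. No paired analysis was possible because the count columns carry no replicate number. The sample labels number the mice within each genotype, and the sources used here do not state that equal numbers mark paired mice. A replicate number on the count columns would therefore not by itself make the design a paired one.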
